A study of Mus musculus with 1392 samples.

Results

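The genes Alcam, Neo1, Osmr, Ghr, Wwtr1, Clu and Aldh1a1 have been found at higher transcript levels in old than in young mouse haematopoietic stem cells, and the chromatin around them was compared here between old and young stem cells. Their members were the accessible regions (peaks) that overlapped 1 fixed window of the mm9 mouse genome per gene. The 7 windows held 86 of the 115295 peaks in the table, with 22 at Wwtr1, 20 at Neo1, 16 at Alcam, 10 at Clu, 9 at Ghr, 6 at Osmr and 3 at Aldh1a1. The assay was plate-based single-cell ATAC-seq: a transposase cuts accessible DNA and tags the cut ends for sequencing. The cells came from the bone marrow of old and of young C57BL/6 mice. Both were sorted as Sca-1+, Kit+, lineage-negative, CD150+, CD48-, CD34- and Vwf+ stem cells, where Vwf encodes the clotting protein von Willebrand factor. The labels call the mice old or young without an age in months.

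The 1392 cells formed 5 numbered sets, 3 of old cells (306 cells in old 1, 380 in old 2 and the remaining old cells in old 3) and 2 of young cells (181 and 151 cells in young 1 and 2). Total counts were 4181770, 2125677 and 1640887 in old 1, 2 and 3, against 1159957 and 2589894 in young 1 and 2. What a set stands for (an animal, a pool of animals, a plate) is not stated in the labels. Each was taken as 1 replicate. The p-values of the fits rest on counting error and on set-to-set spread, estimated partly across all features. This spread may be technical. Because every set has cells of a single age, age cannot be told apart from how a set was prepared. Depth per cell differed between sets, with medians of 9623, 4434 and 3604.5 counts in old 1, 2 and 3, against 6133 and 11807 in young 1 and 2. Shallow cells (below 2000 counts) made up 27.8% of old 1 and 2.21% to 9.89% of each remaining set. No annotation of the mm9 build was at hand, so peaks were not assigned to promoters, exons or introns, and markers of the sorted cell type were not analysed here.

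The products of the 7 genes act at different levels of a stem cell. ALCAM, neogenin, the oncostatin M receptor and the growth hormone receptor sit in the cell membrane and receive contacts or soluble signals. TAZ, the product of Wwtr1, carries Hippo pathway signals to the TEAD transcription factors, which switch on their target genes together with such a partner. Clusterin is a secreted chaperone, and ALDH1A1 oxidises retinaldehyde to retinoic acid. Open chromatin at promoters and enhancers lets transcription factors reach DNA, so accessibility shows which regulatory regions are available to a gene, not how much RNA it makes.

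In the data, the summed accessibility of the windows rose in old cells at 2 of the 7 genes, 1.53-fold at Wwtr1 and 1.66-fold at Aldh1a1, where 7.31% of all windows and tiles across the genome were called and 3.51% were called higher in old cells. Transcripts of the genes were not measured, and the genes and windows were chosen with earlier results of these data known. Osmr had a fold of similar size that did not pass the test, and Alcam, Neo1, Ghr and Clu had folds between 1.04 and 1.08. At Wwtr1 mean accessibility was higher in old cells at 18 of 22 peaks, where 52.5% of all peaks with any count were. Of its 10 tested peaks 2 were called, where 3.17% of all tested peaks were. Of these 2, 1 had enough counts to be tested only through its old sets (3 and 3 counts in young 1 and 2). A single small Clu peak, which also could be tested only through its old sets, rose although the Clu window did not pass. A second test, DESeq2, called none of these peaks, and each of these peak calls was lost when certain single sets were left out. Of the window calls, that at Aldh1a1 was lost with DESeq2 and held in 8 of 16 alternative settings. That at Wwtr1 was lost in only 1 of 16, with every cell thinned to the same number of counts.

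The stretches before the start sites of the 2 genes whose windows rose are shown because transcription of the genes begins there. Of the 2 starts that RefSeq lists for Wwtr1 the upstream one is shown, since the stretch before the other overlaps it and holds the same TEAD match. They are taken from RefSeq on build GRCm38.p6, which is not the build of the peaks. None of them is therefore tied to a peak or placed inside a gene window. Each is the 250 bases before a start site, 5′ to 3′ on the strand of the gene. Capitals mark matches to any of 5 motifs searched on both strands, namely the TEAD motif GGAATG, the GATA factor motif AGATAA, the ETS motif CCGGAA, the RUNX motif TGTGGT and the AP-1 motif TGANTCA, and no printed match overlaps another.
Wwtr1, chr3:57575911-57576160, minus strand: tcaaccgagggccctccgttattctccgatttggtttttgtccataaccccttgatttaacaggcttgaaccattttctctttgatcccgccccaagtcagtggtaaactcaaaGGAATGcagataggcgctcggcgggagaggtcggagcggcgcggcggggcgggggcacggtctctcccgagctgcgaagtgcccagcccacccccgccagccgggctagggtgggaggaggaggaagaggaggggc
Aldh1a1, upstream start, chr19:20492333-20492582, plus strand: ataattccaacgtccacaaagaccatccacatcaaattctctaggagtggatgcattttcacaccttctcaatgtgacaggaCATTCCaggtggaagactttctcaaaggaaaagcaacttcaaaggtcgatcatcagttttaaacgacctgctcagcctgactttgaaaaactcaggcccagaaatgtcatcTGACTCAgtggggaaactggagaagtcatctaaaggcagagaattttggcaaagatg
Aldh1a1, downstream start, chr19:20601718-20601967, plus strand: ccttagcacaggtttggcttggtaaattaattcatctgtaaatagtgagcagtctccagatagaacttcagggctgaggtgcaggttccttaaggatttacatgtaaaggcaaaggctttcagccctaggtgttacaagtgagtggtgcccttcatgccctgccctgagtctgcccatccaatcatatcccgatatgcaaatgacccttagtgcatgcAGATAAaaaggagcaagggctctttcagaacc
The Wwtr1 stretch shown had 61.6% G and C and 18 CpG dinucleotides, and the Aldh1a1 stretches had 42.8% and 46.4% with 3 and 1 CpG, where the median over all 32851 stretches of the table was 52.4% with 6 CpG. The TEAD letters stood once before Wwtr1 and once, as the reverse complement CATTCC, before the upstream Aldh1a1 start, and 12.6% of all stretches held them. AP-1 letters were also found before the upstream Aldh1a1 start (6.75% of all stretches held them), and GATA letters before the downstream one (9.99%). Of the 7 genes, 6 had entries in the table, and Clu had none. Before the starts of Alcam, Neo1 and Osmr none of the 5 motifs was found in these stretches, and 1 of the 2 Ghr stretches held the AP-1 letters.

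Accessibility per window was summed over all its peaks and expressed as counts scaled to a common set total (CPM, with totals scaled by edgeR's TMM factors). Factors were fitted separately for windows and for single peaks, so the CPM of peaks do not add up to those of their window. The windows were fitted in 1 table with 200 kb tiles that hold all other peaks, with edgeR's quasi-likelihood test and Benjamini-Hochberg adjustment over all 9867 windows and tiles. Of these, 7.31% passed an adjusted p of 0.05, with 3.51% higher and 3.8% lower in old cells. Against this background 2 of the 7 gene windows were called, both higher in old cells. The windows were chosen with earlier results of these data known, so their share of calls is not an unbiased comparison with this background. All 7 log2 fold changes were above 0, as were 50.1% of those of windows and tiles. In 3 gene windows every old set lay above both young sets, where 20.1% of windows and tiles did so and 17.7% had every old set below. A higher sum can come from more cells with open chromatin or from more cuts per open cell, and sums do not tell these apart.

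**Figure D1:**
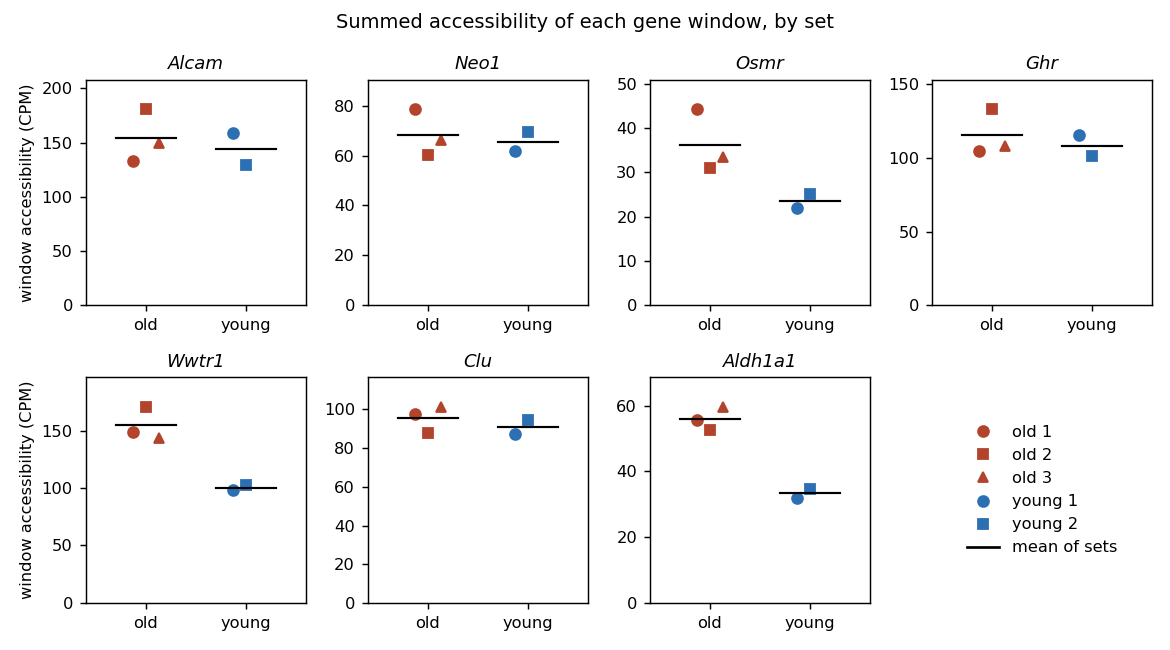
Summed accessibility of all peaks in each gene window (CPM, vertical axes from 0) in the 3 old sets at the left of each panel and the 2 young sets at the right; each point is 1 set and lines are means. The old sets lie above both young sets at Osmr, Wwtr1 and Aldh1a1 and overlap the young sets at Alcam, Neo1, Ghr and Clu.

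Alcam encodes ALCAM (CD166), an adhesion molecule that binds itself and CD6 on other cells. Its 250 kb window (chromosome 16, 16 peaks between 52303688 and 52470670) had 133, 181 and 150 CPM in old 1, 2 and 3, against 159 and 129 CPM in young 1 and 2. The groups overlapped, with the highest value in old 2 and the lowest in young 2. The log2 fold change was 0.11 ± 0.14 (SE, 3 old and 2 young sets; fold 1.08, 95% interval 0.898 to 1.30; edgeR adjusted p = 0.703). The Alcam peak with the most counts (chr16:52452373-52453752) held 50.4% of the counts of the window. It had 72.9, 105 and 79.7 CPM in old 1, 2 and 3, against 97.6 and 73.1 CPM in young 1 and 2, a log2 fold change of 0.02 ± 0.21 (SE; edgeR adjusted p = 0.976). Of the 4 tested Alcam peaks the one with the smallest p (chr16:52311202-52311756) had 11.8, 14.1 and 16.6 CPM in old 1, 2 and 3, against 8.97 and 11.2 CPM in young 1 and 2. All old sets lay above the young ones there, but the log2 fold change of 0.40 ± 0.35 (SE) did not pass the test (edgeR adjusted p = 0.632). The other 12 Alcam peaks held 12 to 30 counts each over all sets and were too low to test.

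Neo1 encodes neogenin, a receptor for netrins and repulsive guidance molecules. Its 210 kb window (chromosome 9, 20 peaks between 58704898 and 58885079) had 78.6, 60.1 and 66.2 CPM in old 1, 2 and 3, against 61.7 and 69.6 CPM in young 1 and 2. The old sets spanned the young ones, and the log2 fold change was 0.06 ± 0.17 (SE; fold 1.04, 95% interval 0.827 to 1.31; edgeR adjusted p = 0.889). The widest Neo1 peak was also the one with the most counts (chr9:58883625-58885079), with 26.0, 16.7 and 25.2 CPM in old 1, 2 and 3, against 21.9 and 21.1 CPM in young 1 and 2. Another (chr9:58862663-58863575) had the smallest p of the 4 tested, with 7.34, 8.34 and 10.6 CPM in old 1, 2 and 3, against 6.97 and 13.9 CPM in young 1 and 2. Its log2 fold change of -0.42 ± 0.38 (SE) did not pass the test (edgeR adjusted p = 0.654), and without young 2 it was 0.31. The median over the 4 tested Neo1 peaks was -0.19, and 16 of the 20 Neo1 peaks, with 7 to 39 counts each, were too low to test.

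Osmr encodes the receptor subunit that pairs with gp130 to bind oncostatin M, an interleukin-6 family cytokine. Its 100 kb window (chromosome 15, 6 peaks between 6790277 and 6834190) had 44.3, 31.0 and 33.4 CPM in old 1, 2 and 3, against 22.1 and 25.2 CPM in young 1 and 2. Every old set lay above both young sets. The log2 fold change was 0.62 ± 0.24 (SE; fold 1.54, 95% interval 1.11 to 2.13), and it did not pass the adjustment (edgeR adjusted p = 0.115, 0.0779 to 0.539 over the alternatives tried). Exact two-sided permutation of the ages over sets gave p = 0.1, the smallest that 5 sets allow. One peak (chr15:6823814-6825108) held 42.2% of the counts of the window and had both the most counts and the smallest p. It had 20.5, 14.1 and 21.2 CPM in old 1, 2 and 3, against 11.0 and 8.97 CPM in young 1 and 2, a log2 fold change of 0.94 ± 0.34 (SE; edgeR adjusted p = 0.128). All 3 tested Osmr peaks had positive log2 fold changes, from 0.24 to 0.94, and none was called.

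Ghr encodes the growth hormone receptor, which signals through JAK2 and STAT5. Its 310 kb window (chromosome 15, 9 peaks between 3299675 and 3533735) is the longest of the 7 and had 105, 133 and 108 CPM in old 1, 2 and 3, against 116 and 101 CPM in young 1 and 2. The groups overlapped, and the log2 fold change was 0.10 ± 0.14 (SE; fold 1.07, 95% interval 0.885 to 1.30; edgeR adjusted p = 0.748). A single peak, the widest of all 86 (chr15:3531852-3533735, 1883 bp), held 60.0% of these counts. It had 67.9, 86.0 and 69.1 CPM in old 1, 2 and 3, against 84.7 and 74.0 CPM in young 1 and 2 (log2 fold change -0.09 ± 0.20, SE; edgeR adjusted p = 0.894). The small peak with the lowest p in this window (chr15:3458619-3459142) had 3.67, 8.86 and 7.97 CPM in old 1, 2 and 3, against 4.98 and 1.79 CPM in young 1 and 2. Old 1 lay between the young sets there, and the log2 fold change of 1.12 ± 0.60 (SE) did not pass the test (edgeR adjusted p = 0.372). Without young 2 it was 0.36, and without young 1 it was 1.79, neither of which passed (adjusted p 0.899 and 0.221). Of the 6 tested Ghr peaks 4 were positive, with a median of 0.26, and none was called.

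Wwtr1 encodes TAZ, the transcriptional co-activator held back by the Hippo kinases. Its 170 kb window (chromosome 3, 22 peaks between 57252459 and 57392592) had 149, 171 and 144 CPM in old 1, 2 and 3, against 97.9 and 103 CPM in young 1 and 2. All old sets lay well above both young sets, and no other window of the 7 had a smaller p. Accessibility rose by 0.62 ± 0.13 on the log2 scale (SE; fold 1.53, 95% interval 1.28 to 1.83; edgeR adjusted p = 0.00267). Leaving out each set in turn kept the call, with log2 fold changes of 0.54 to 0.66 and adjusted p of 0.00034 to 0.0315. With every cell thinned to 1906 counts the log2 fold change was 0.62 and the call was lost (edgeR adjusted p = 0.105, 0.00034 to 0.105 over all alternatives). By exact permutation of the set labels p was 0.1, the smallest possible.

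The Wwtr1 peak with the most counts (chr3:57378828-57380608) held 34.8% of the counts of the window. It had 58.5, 64.1 and 41.2 CPM in old 1, 2 and 3, against 48.8 and 46.2 CPM in young 1 and 2. Old 3 was the lowest of all 5 sets there, and the log2 fold change was 0.22 ± 0.22 (SE, 95% interval -0.21 to 0.66; edgeR adjusted p = 0.690). Without this peak the rest of the window had 96.2, 114 and 107 CPM in old 1, 2 and 3, against 54.7 and 61.6 CPM in young 1 and 2. Refitted that way, the window had a log2 fold change of 0.83 ± 0.16 (SE, 95% interval 0.53 to 1.14; edgeR adjusted p = 0.00064). Whether this peak and the rest differed in their change was not tested.

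Across single peaks, edgeR's test ran on 58167 peaks of the table, of which 3.17% were called, 1.39% higher and 1.78% lower in old cells. Of the 86 member peaks 35 had enough counts to be tested, and 3 were called, all higher in old cells, with 2 at Wwtr1 and 1 at Clu. Among the tested members 25 had positive and 10 negative log2 fold changes, with a median of 0.22 and a range of -0.94 to 2.03, beside a median of -0.01 over all tested peaks, of which 49.2% were positive. An unadjusted p under 0.05 was found at 10 tested members and at 15.4% of all tested peaks. A peak low in young cells could reach the count filter through its old sets, so the tested members are not a neutral sample of the 86. The called Clu peak (4 and 7 counts in young 1 and 2) did so. So did the called Wwtr1 peak at chr3:57291342-57291877 (3 and 3 counts). The direction of both calls is therefore not independent of the filter. The 51 members that were not tested held 5 to 51 counts each over all sets. Over all 86 members, mean CPM was higher in old cells at 55. Every old set lay above both young sets at 25, of which 13 were at Wwtr1, and below both at 8, where 16.3% and 13.7% of all peaks with any count did so.

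**Figure D2:**
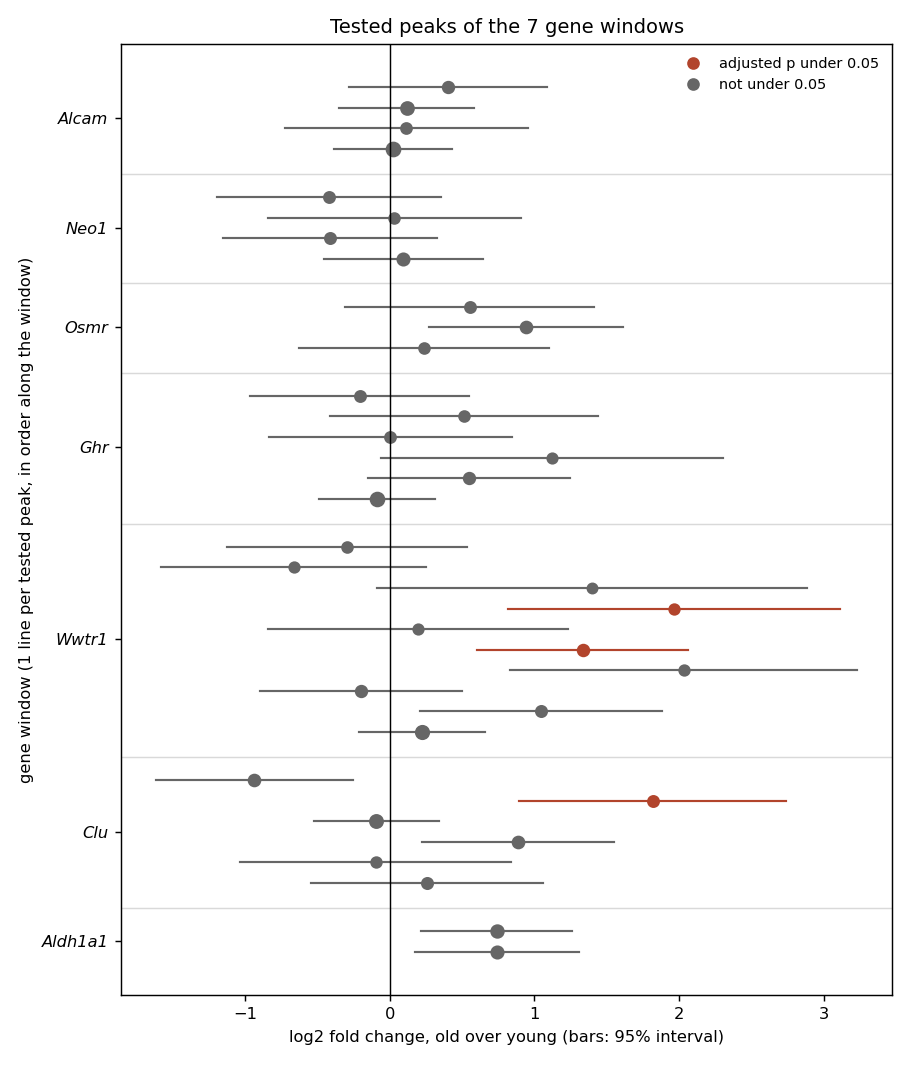
Log2 fold change, old over young, of the 35 tested member peaks, grouped by gene and ordered along each window, with 95% intervals as bars and larger points for more counts. The 3 called peaks, 2 at Wwtr1 and 1 at Clu, are in red and lie between 1.33 and 1.96; both tested Aldh1a1 peaks lie at 0.74.

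The called Wwtr1 peaks were centred 76.5 and 51.6 kb into the window, and its largest peak 139.7 kb. The first (chr3:57316128-57316895) had 18.1, 17.2 and 13.3 CPM in old 1, 2 and 3, against 6.97 and 6.28 CPM in young 1 and 2, and rose by 1.33 ± 0.37 on the log2 scale (SE; edgeR adjusted p = 0.0307). The second (chr3:57291342-57291877) had 7.08, 7.81 and 7.97 CPM in old 1, 2 and 3, against 2.99 and 1.35 CPM in young 1 and 2, and rose by 1.96 ± 0.59 (SE; edgeR adjusted p = 0.0479). The old sets lay above the young ones at both peaks, and the second of them rested on only 27, 15 and 12 counts in old 1, 2 and 3, against 3 and 3 counts in young 1 and 2. Neither call was stable to the choice of sets. That of the first was lost with any 1 set left out, with adjusted p of 0.105 without old 1, 0.0959 without old 2, 0.0505 without old 3, 0.0741 without young 1 and 0.326 without young 2. For the second the adjusted p was 0.103 without old 1, 0.125 without old 2, 0.129 without old 3 and 0.556 without young 2, and the call held without young 1 (0.0499). Its log2 fold change was 1.34 without young 2 and 2.44 without young 1. DESeq2 called neither (adjusted p 0.390 and 0.502).

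Over all 22 Wwtr1 peaks, tested or not, mean CPM was higher in old cells at 18, where 52.5% of all peaks with any count were. At 2 of the 22 every old set lay below both young sets. Of the 10 tested Wwtr1 peaks 3 had negative log2 fold changes, down to -0.66. The 12 untested Wwtr1 peaks, summed, had 32.7, 31.0 and 44.7 CPM in old 1, 2 and 3, against 12.3 and 14.0 CPM in young 1 and 2, a log2 ratio of means of 1.46. With both called peaks left out, the window still had 126, 148 and 125 CPM in old 1, 2 and 3, against 89.1 and 95.9 CPM in young 1 and 2. A further Wwtr1 peak, chosen after its values were seen because it fell just short of the threshold (chr3:57320130-57320521), had 5.77, 9.38 and 8.63 CPM in old 1, 2 and 3, against 0 and 2.69 CPM in young 1 and 2. This peak too reached the count filter through its old sets, with 0 and 6 counts in young 1 and 2. Its direction is therefore not independent of the filter. The log2 fold change was 2.03 ± 0.61 (SE; edgeR adjusted p = 0.0510). It was 1.48 without young 1 (adjusted p 0.259), and without young 2 the peak was called (adjusted p 0.0283) against a single young set with 0 counts, for which no fold is given.

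**Figure D3:**
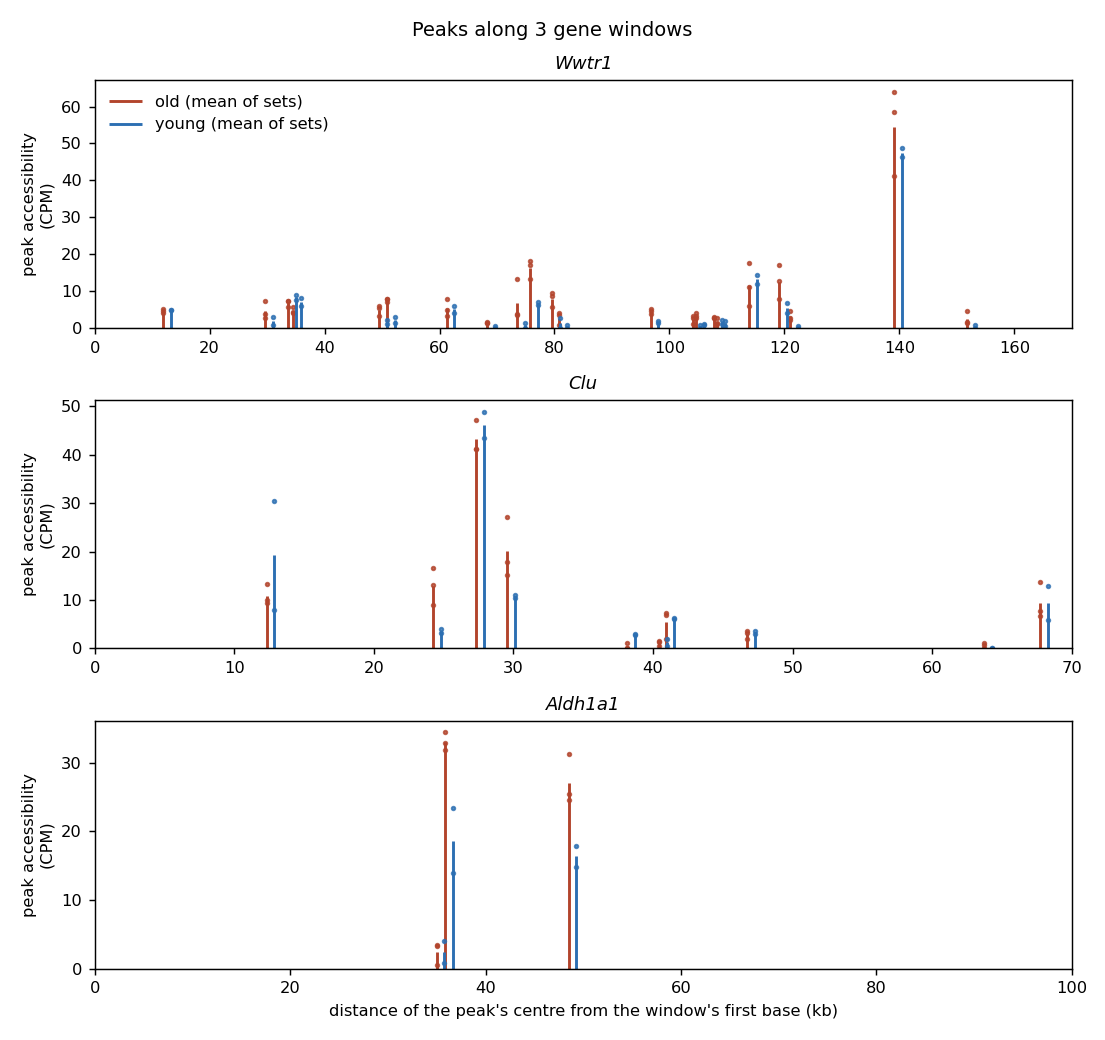
Mean accessibility of each peak (CPM, bars; dots are single sets) by distance of its centre from the first base of the window (kb) at Wwtr1, Clu and Aldh1a1, with old cells in red just left of the peak's place and young cells in blue just right of it. At Wwtr1 the sets overlap at the largest peak, and the mean is higher in old cells at 18 of the 22 peaks. At Clu 1 small peak is called higher in old cells, and the higher young mean at the first peak rests on young 2. At Aldh1a1 both large peaks are higher in old cells.

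Clu encodes clusterin, a secreted chaperone that binds misfolded proteins. Its 70 kb window (chromosome 14, 10 peaks between 66572054 and 66628398) had 97.6, 87.9 and 101 CPM in old 1, 2 and 3, against 87.3 and 94.8 CPM in young 1 and 2. The groups overlapped, and the log2 fold change was 0.06 ± 0.14 (SE; fold 1.04, 95% interval 0.859 to 1.27; edgeR adjusted p = 0.867). Within it, 1 of the 6 tested peaks was called higher in old cells and none lower. This Clu peak (chr14:66584308-66584640) had 8.92, 13.0 and 16.6 CPM in old 1, 2 and 3, against 3.98 and 3.14 CPM in young 1 and 2. It rose by 1.82 ± 0.47 on the log2 scale (SE; edgeR adjusted p = 0.0166) on 34, 25 and 25 counts in old 1, 2 and 3, against 4 and 7 counts in young 1 and 2. The call was lost without old 2 (adjusted p 0.0730), without old 3 (0.113), without young 2 (0.286) and with DESeq2 (0.246). The Clu peak with the most counts (chr14:66587136-66587965) had 41.2, 41.2 and 47.1 CPM in old 1, 2 and 3, against 48.8 and 43.5 CPM in young 1 and 2 (log2 fold change -0.09 ± 0.22, SE; edgeR adjusted p = 0.895).

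A pair of further Clu peaks was chosen after their values were seen, as the lowest of all tested members and the next highest at Clu. The lowest (chr14:66572054-66573124) had 13.4, 9.90 and 9.30 CPM in old 1, 2 and 3, against 7.97 and 30.5 CPM in young 1 and 2. Its value rested on young 2, since the log2 fold change of -0.94 ± 0.35 (SE; edgeR adjusted p = 0.148) became 0.53 without young 2 (adjusted p 0.783) and -1.42 without young 1 (adjusted p 0.00323). A single cell of young 2 held 29 of the 68 counts of that set, and with each cell counted once the log2 fold change was -0.20 (adjusted p 0.879). Its 5 richest cells held 28.1% of its counts, the highest such share among the tested members. The other (chr14:66589343-66590172) had 17.8, 15.1 and 27.2 CPM in old 1, 2 and 3, against 11.0 and 10.3 CPM in young 1 and 2, with a log2 fold change of 0.89 ± 0.34 (SE; edgeR adjusted p = 0.157). In RefSeq's GRCm38.p6 table Clu spans 13.1 kb between Scara3 and Gulo, so the 70 kb window may also hold peaks of other genes.

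Aldh1a1 encodes a retinaldehyde dehydrogenase. Its 100 kb window (chromosome 19, 3 peaks between 20675300 and 20689357) had 55.7, 52.7 and 59.6 CPM in old 1, 2 and 3, against 31.8 and 34.8 CPM in young 1 and 2. The groups were far apart relative to their spread. Accessibility rose by 0.73 ± 0.20 on the log2 scale (SE; fold 1.66, 95% interval 1.27 to 2.18; edgeR adjusted p = 0.0196), and exact permutation of the set labels gave its smallest possible p of 0.1. This call was less firm than that at Wwtr1, since it was lost without old 3 (adjusted p 0.0692), without young 1 (0.0807) and without young 2 (0.117), as well as with DESeq2 (0.0832). Over all alternatives the adjusted p ran from 0.0118 to 0.183 and the log2 fold change from 0.64 to 0.95.

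Only 3 peaks made up the Aldh1a1 window, and 2 of them held nearly all counts. The larger (chr19:20675607-20676972) had 32.8, 34.4 and 31.9 CPM in old 1, 2 and 3, against 13.9 and 23.3 CPM in young 1 and 2, a log2 fold change of 0.74 ± 0.27 (SE; edgeR adjusted p = 0.128; 0.51 to 1.27 with 1 set left out). Counting each cell once per peak gave this peak an adjusted p of 0.0339, where the other alternatives gave 0.0704 to 0.624. The next (chr19:20688390-20689357, named here as the only other tested peak of the window) had 25.4, 24.5 and 31.2 CPM in old 1, 2 and 3, against 17.9 and 14.8 CPM in young 1 and 2, with a log2 fold change of 0.74 ± 0.29 (SE; edgeR adjusted p = 0.165). The old sets lay above the young sets at both. RefSeq gives Aldh1a1 150.9 kb on GRCm38.p6, which is longer than the 100 kb window, so the window does not hold the whole gene. On that build the genes before and after Aldh1a1 are Anxa1 and Aldh1a7.

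Levels can be compared between genes per kilobase of peak. In old cells Aldh1a1 was highest at 21.8 ± 1.35 CPM per kb (SD, n = 3 sets), followed by Alcam at 20.7 ± 3.28, Ghr at 18.5 ± 2.49, Clu at 17.5 ± 1.27, Wwtr1 at 13.9 ± 1.29, Osmr at 11.0 ± 2.16 and Neo1 at 7.03 ± 0.972. Only Clu and Wwtr1, and Osmr and Neo1, were neighbours in this order whose old sets did not overlap. In young cells Alcam led at 19.3 ± 2.82 CPM per kb (SD, n = 2 sets), then Ghr at 17.4 ± 1.63, Clu at 16.6 ± 0.958, Aldh1a1 at 13.0 ± 0.833, Wwtr1 at 9.06 ± 0.308, Osmr at 7.18 ± 0.674 and Neo1 at 6.75 ± 0.568. The young sets of neighbours did not overlap between Clu and Aldh1a1, Aldh1a1 and Wwtr1, and Wwtr1 and Osmr. Aldh1a1 thus had rank 1 in old cells and rank 4 in young cells, while the other 6 genes kept their order.

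To ask whether more old cells held an open site in a window, each cell was thinned at random to 1906 counts, with shallower cells left out (84, 13 and 34 cells of old 1, 2 and 3, and 4 and 5 cells of young 1 and 2). At Aldh1a1 8.56%, 9.54% and 10.9% of old 1, 2 and 3 cells then had a count, against 3.95% and 4.79% of young 1 and 2 cells. At Wwtr1 the shares were 20.7%, 27.5% and 24.1% in old 1, 2 and 3, against 15.3% and 19.9% in young 1 and 2. Every old set lay above both young sets at these 2 genes. The same held at Osmr, with 4.95%, 5.99% and 6.18% of old 1, 2 and 3 cells, against 3.95% and 3.42% of young 1 and 2 cells, and at Neo1, with 11.7%, 10.9% and 12.6% of old cells, against 10.7% and 6.16% of young cells. By exact two-sided permutation of the ages over sets, p was 0.1 for Aldh1a1, Osmr and Neo1, the smallest possible, and 0.2 for Wwtr1. Shares overlapped between the ages at Alcam (old mean 24.6%, young mean 22.5%), Ghr (20.3% and 17.3%) and Clu (15.9% and 13.5%).

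**Figure D4:**
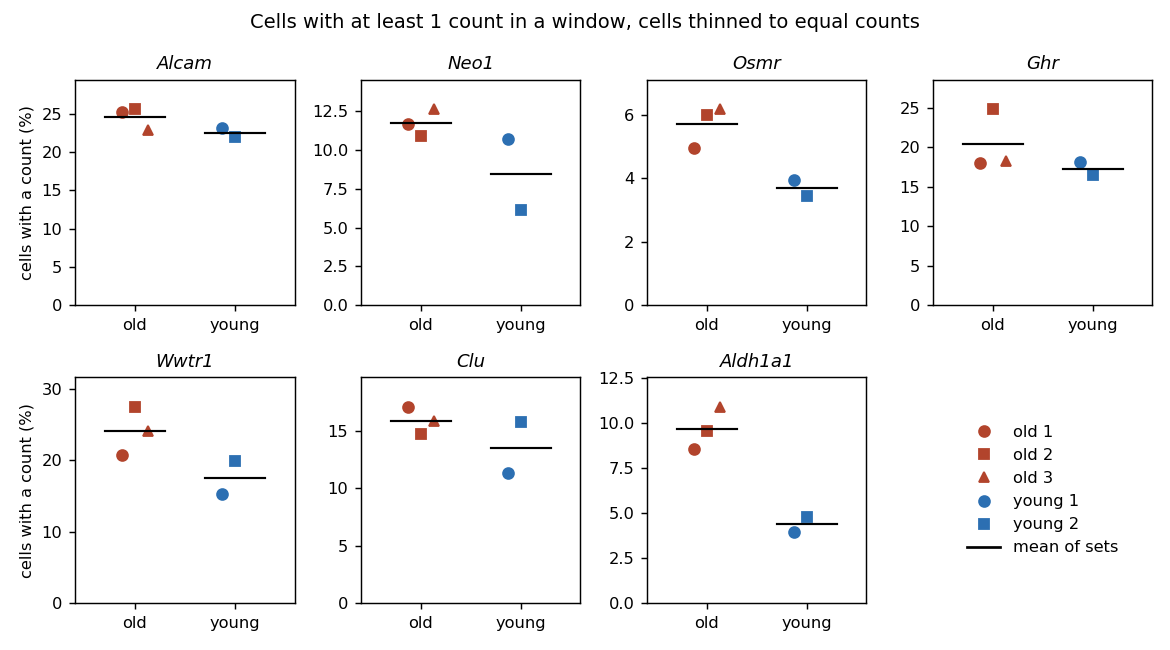
Percent of cells with at least 1 count in each window after thinning every cell to 1906 counts (vertical axes from 0), with the 3 old sets at the left of each panel and the 2 young sets at the right; points are sets and lines are means. Old sets lie above young sets at Neo1, Osmr, Wwtr1 and Aldh1a1, with 8.56% to 10.9% of old cells at Aldh1a1 and 3.95% to 4.79% of young cells.

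These shares moved with the depth chosen. At 1000 counts per cell, which kept more cells but fewer counts of each, only Osmr still had every old set above both young sets (4.89%, 3.42% and 4.01% in old 1, 2 and 3, against 2.78% and 0.662% in young 1 and 2). Wwtr1 then had 13.5%, 17.4% and 11.0% in old 1, 2 and 3, against 12.2% and 5.96% in young 1 and 2, and Aldh1a1 had 6.02%, 4.47% and 5.61%, against 5.00% and 4.64%. Without thinning the ages overlapped at Aldh1a1, with 39.5%, 23.4% and 21.4% in old 1, 2 and 3, against 16.6% and 31.8% in young 1 and 2. The shares of single sets had exact binomial 95% intervals whose bounds lay up to 7.59 points from the share at 1906 counts, for counting error only. Each thinning was a single random draw. No order of the ages was therefore read from these shares.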

How the data were processed

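The authors deposited 1 table of counts, whole numbers for each peak in each cell, which are not normalized as the values show. Each sample is 1 cell. Per the submitters' processing notes, Trim Galore, FastQC, Bowtie2, SAMtools and Picard were used with the mouse build mm9. No source used here states the peak caller, the handling of duplicate reads, whether cut sites were shifted, or how cells were filtered. If old and young cells were pooled for peak calling, the larger number of old cells (1060, against 332 young) would weigh in which regions became peaks. Zeros made up 94.6% of entries, and 77.7% of the others were 1.

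Set and age came from the sample titles, and each column matched 1 title. Counts were summed per set and tested for old against young with edgeR 4.0.16 in R 4.3.3 (scaling by TMM, low peaks removed by filterByExpr at a minimum count of 10, robust quasi-likelihood fit, Benjamini-Hochberg adjustment over the whole table, threshold 0.05). The fit was also run on simulated counts with a common level of spread for all features and no single-cell outliers. That run does not cover such traits of the real counts. Standard errors are the log2 fold change over the square root of F, and 95% intervals are 1.96 of them on either side. Exact permutations used the 10 splits of the 5 sets on log2 CPM or shares and cannot go below 0.1. Peaks named are the called members and, per window, the member with the most counts and the tested one with the smallest p; others are marked where they appear. The genes, windows and lists were chosen with earlier results of these data known. Alternatives concerned the test (DESeq2 1.42.0), scaling, filters, cell depth and number, window edges, set numbers as a block and each set left out. Peak positions are as the table names them.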

Additional observations from a re-analysis of the deposited data

How the results depend on the processing

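Counts of calls depended strongly on the processing. Over all peaks, 1844 were called, against 426 with DESeq2, 619 with equal numbers of cells, 769 with a minimum count of 30, 220 with thinned cells, 840 at a threshold of 0.01 and 776 to 1641 with 1 set left out. Of the member peaks 3 were called, against 5 with no filter, 0 with DESeq2, equal numbers of cells, a minimum count of 30, thinned cells or a threshold of 0.01, and 0 to 3 with 1 set left out, of which 1 was lower in old cells (a Clu peak, without young 1). Of all windows and tiles 721 were called, against 342 with DESeq2, 459 with each cell counted once per peak, 333 with equal numbers of cells, 207 with thinned cells and 337 to 1038 with 1 set left out. Of the 7 gene windows 2 were called, against 1 with DESeq2, with equal numbers of cells or without the peak with most counts, 0 with thinned cells, and 1 to 2 with 1 set left out. Fewer counts enter the fits with thinned cells and with equal numbers of cells. These 2 fits and that with a minimum count of 30 tested 13854, 31277 and 22788 peaks, against 58167 in the main fit. They held 7, 17 and 11 member peaks, against 35. None of the 3 called member peaks was tested with thinned cells or equal numbers of cells. With a minimum count of 30 only the Wwtr1 peak chr3:57316128-57316895 was (edgeR adjusted p = 0.0620). The cause of the other changes was not tested.

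No pairing of the sets by number was seen. Over the tested peaks, deviations from the group means correlated by -0.07 between the sets numbered 1 and by 0.00078 between those numbered 2. Counting error at low peaks draws such values towards 0, so this check cannot exclude a pairing. The deviations of the 2 young sets mirror each other, so the values are not separate checks. With the set number as a replicate block 1102 peaks, 1 member peak, 391 windows and tiles and 1 gene window (Wwtr1) were called. Under the block the Aldh1a1 window had a log2 fold change of 0.69 (adjusted p 0.127) and the Neo1 peak with the most counts one of -0.049.

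The Wwtr1 window was higher in old cells under all 16 alternatives (0.54 to 0.83) and lost its call only with thinned cells (0.62). Aldh1a1 was also higher under all 16 (0.64 to 0.95) but kept its call in 8, losing it with DESeq2 (0.72), equal numbers of cells (0.64), thinned cells (0.95) and without the peak with most counts (0.71), and with a range of 0.68 to 0.82 when 1 set was left out. The small differences at Alcam (-0.049 to 0.24), Neo1 (-0.075 to 0.17) and Ghr (-0.013 to 0.18) changed sign when 1 set was left out, and Neo1 did so (-0.025) without peaks under 300 bp. The peaks with the most counts also changed sign at Alcam (-0.17 to 0.23) and Neo1 (-0.017 to 0.28) with 1 set left out, as did the Neo1 peak with the smallest p (-0.71 to 0.31). At the largest Ghr peak the log2 fold change was 0.018 with each cell counted once, 0.021 with equal numbers of cells, 0.010 with library totals and 0.23 with thinned cells, and -0.18 to 0.019 with 1 set left out. At the largest Clu peak it was 0.10, 0.081, 0.0062 and 0.37 in those same 4 settings. For shares of cells, the difference of old minus young in percentage points at 1000 counts was -1.51 at Alcam, -0.20 at Neo1, -0.82 at Clu and 0.55 at Aldh1a1. Without thinning it was -8.90 at Alcam, -9.08 at Neo1, -11.2 at Ghr, -1.99 at Wwtr1, -7.02 at Clu, 1.42 at Osmr and 3.94 at Aldh1a1. With 1 set left out it ran from 1.02 to 5.59 at Neo1 and from 0.15 to 4.61 at Clu.

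Depth limits the 51 untested members most, since each rests on at most 51 counts, and only 2 young sets bound every comparison.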
